A study of Mus musculus with 8 samples.

Results

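The interferon response genes described here are 35 named mouse genes that type I interferon is known to induce: 5 of the oligoadenylate synthetase family, 4 of the IFIT family, 4 of the ISG15 system, 13 other antiviral genes, 4 of the PARP and DTX3L group and 5 regulators. They were listed by name, with earlier results of these data known. All 35 were found among the 55487 genes of each file, and all 35 were among the 20631 genes that passed the filter on low counts. The RNA came from conventional dendritic cells (cDC), antigen-presenting cells sorted from the spleens of untreated C57BL/6 mice. The libraries were cDC1 of Zeb2 -165(d1+2+3) mice (here Zeb2 mutant cDC1), cDC1 of wild-type mice, cDC2 of Irf8 +32-/- mice (here Irf8 mutant cDC2) and cDC2 of wild-type mice, 2 in each group. Each mutant was profiled in 1 cell type only, so cell type and genotype are mixed whenever the mutants are set against each other. As background, both alleles are known to alter an enhancer, not the coding sequence, of the transcription factor gene they are named for. How many animals a library holds and how the cells were gated is not stated in the labels. The p-values therefore measure only the spread between these samples, which may be technical.

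Type I interferon binds the receptor IFNAR1/IFNAR2, whose kinases JAK1 and TYK2 phosphorylate STAT proteins. STAT2 and IRF9 are subunits of the complex ISGF3, which binds the interferon-stimulated response element (ISRE) near the start of target genes. Many of these genes are also transcribed at a lower, tonic level in uninfected animals. Dendritic cells both make interferon and respond to it, and cDC1 need interferon signalling to cross-present antigen to CD8 T cells.

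The libraries held 49380686 to 58611821 counts each. Of the cDC1 marker genes fixed for the check, 16 of 16 were higher in wild-type cDC1 than in wild-type cDC2, and of the cDC2 marker genes 15 of 15 were lower. Zeb2 had 2.24 and 3.54 CPM (counts scaled by library size, here with TMM factors) in Zeb2 mutant cDC1, against 2.09 and 2.10 CPM in wild-type cDC1. Irf8 had 147 and 120 CPM in Irf8 mutant cDC2, against 126 and 104 CPM in wild-type cDC2. Neither gene was called changed by its genotype, so the transcripts of the 2 targeted genes do not check the genotype labels. In bulk RNA, fewer cells of a type and less RNA per cell cannot be told apart.

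The promoter sequences below show where the ISRE core lies in members that behaved differently, as given by RefSeq on build GRCm38.p6. RefSeq windows running from 250 bases before to 50 bases after the start were matched by symbol for 28 of the 35 members. The core searched was GAAA, any 2 bases, GAAA, on both strands, and the capitals mark each match. Each line gives the 200 bases before the start, 5′ to 3′ on the gene's own strand. Ifit1, Ifit3, Ddx60, Isg15, Rsad2 and Oas3 are shown as members lower in cDC1 with a core, Oasl2 as a member lower in cDC1 without one, and Bst2 and Trim30a as members higher in cDC1 with one.
Ifit1: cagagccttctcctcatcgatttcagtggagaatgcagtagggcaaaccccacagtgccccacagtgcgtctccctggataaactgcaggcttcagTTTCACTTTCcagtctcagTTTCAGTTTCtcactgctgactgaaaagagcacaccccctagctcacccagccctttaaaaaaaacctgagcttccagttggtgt
Ifit3: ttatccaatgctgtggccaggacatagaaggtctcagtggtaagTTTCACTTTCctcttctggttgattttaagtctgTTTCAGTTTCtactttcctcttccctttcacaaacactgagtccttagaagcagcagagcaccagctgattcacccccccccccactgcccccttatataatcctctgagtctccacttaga
Ddx60: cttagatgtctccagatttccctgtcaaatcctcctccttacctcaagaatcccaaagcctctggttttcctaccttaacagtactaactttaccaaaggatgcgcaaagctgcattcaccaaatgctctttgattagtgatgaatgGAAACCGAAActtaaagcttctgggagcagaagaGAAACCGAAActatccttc
Isg15: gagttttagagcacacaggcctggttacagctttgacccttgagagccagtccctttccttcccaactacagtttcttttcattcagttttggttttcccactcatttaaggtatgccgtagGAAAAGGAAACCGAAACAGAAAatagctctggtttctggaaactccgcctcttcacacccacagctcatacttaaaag
Rsad2: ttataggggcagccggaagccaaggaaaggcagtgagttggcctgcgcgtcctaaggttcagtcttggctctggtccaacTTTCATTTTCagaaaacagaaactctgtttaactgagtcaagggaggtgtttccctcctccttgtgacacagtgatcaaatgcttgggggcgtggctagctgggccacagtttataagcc
Oas3: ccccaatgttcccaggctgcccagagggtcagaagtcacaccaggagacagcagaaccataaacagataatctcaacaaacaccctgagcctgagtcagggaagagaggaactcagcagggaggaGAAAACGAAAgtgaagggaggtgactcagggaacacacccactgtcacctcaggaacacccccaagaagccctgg
Oasl2: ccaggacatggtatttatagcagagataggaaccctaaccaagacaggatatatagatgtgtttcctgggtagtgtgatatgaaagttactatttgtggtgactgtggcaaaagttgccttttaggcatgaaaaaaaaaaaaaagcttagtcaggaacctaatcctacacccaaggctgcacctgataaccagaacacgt
Bst2: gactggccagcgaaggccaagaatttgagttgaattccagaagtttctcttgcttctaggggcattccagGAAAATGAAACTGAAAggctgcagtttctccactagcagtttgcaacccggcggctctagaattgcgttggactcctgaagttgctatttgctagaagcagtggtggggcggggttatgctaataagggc
Trim30a: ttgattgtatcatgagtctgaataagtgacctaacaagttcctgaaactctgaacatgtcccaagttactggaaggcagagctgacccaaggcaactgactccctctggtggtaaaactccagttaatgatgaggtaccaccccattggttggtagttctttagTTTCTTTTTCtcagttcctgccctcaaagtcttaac
The stretches lie at chr19:34640689-34640888 (plus strand), chr19:34583329-34583528 (plus), chr8:61927887-61928086 (plus), chr4:156200819-156201018 (minus), chr12:26456453-26456652 (minus), chr5:120777660-120777859 (minus), chr5:114896734-114896933 (plus), chr8:71537473-71537672 (minus) and chr7:104465194-104465393 (minus), in the order of the lines.

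The core was found in the windows of 14 of the 28 matched members (50.0%), against 1079 of 27025 genes (3.993%) over all RefSeq windows of this length. A longer form, GAAA, any 2 bases, GAAAC, stood in 11 of the 28 members (39.286%), against 0.944% of genes. A core shared by ETS factors and IRF proteins (GGAA, any 2 bases, GAAA) stood in 5 of 28 members (17.857%), against 3.156% of genes, and can overlap the ISRE core. The letters of the GAS element, a site of the interferon gamma response (TTC, any 3 bases, GAA) stood in 7 of 28 members (25.0%), against 9.554% of genes.

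Matches were not limited to members that differed one way between the cell types. Of the members lower in wild-type cDC1 than in wild-type cDC2, 9 of 16 with a window held the core; of those higher, 2 of 5 did; and of those not called, 3 of 7 did. In Isg15 3 overlapping matches began 78, 72 and 66 bases before the start. Ddx60 held matches 53 and 19 bases before its start, and Bst2 held overlapping ones at 130 and 124. In Ifit1 and Ifit3 the matches lay on the other strand, at 104 and 85 bases and at 156 and 122 bases. A match describes letters and does not show binding.

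Between the cell types in wild-type mice, most members were lower in cDC1. Against an all-gene background of 15.9% called lower and 14.2% called higher, 21 of the 35 members were lower in wild-type cDC1 than in wild-type cDC2, 6 were higher and 8 did not pass the test (edgeR's quasi-likelihood test with Benjamini-Hochberg adjustment across the 20631 genes, called at an adjusted p under 0.05). The median log2 fold change was -1.15 over the members and 0.03 over all tested genes. Individual members ranged between -6.92 and 2.01 on the log2 scale. All 35 members summed to 1491 and 1493 CPM in wild-type cDC1, against 2151 and 2293 CPM in wild-type cDC2. The 21 lower members summed to 431.2 and 407.9 CPM in wild-type cDC1, against 1297 and 1364 CPM in wild-type cDC2. These 21 were picked as lower in the same libraries, so their sum had to be lower there. Removing a trend with gene length changed the members' median to -0.89, and the other settings tried left it between -1.20 and -0.92.

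**Figure D1:**
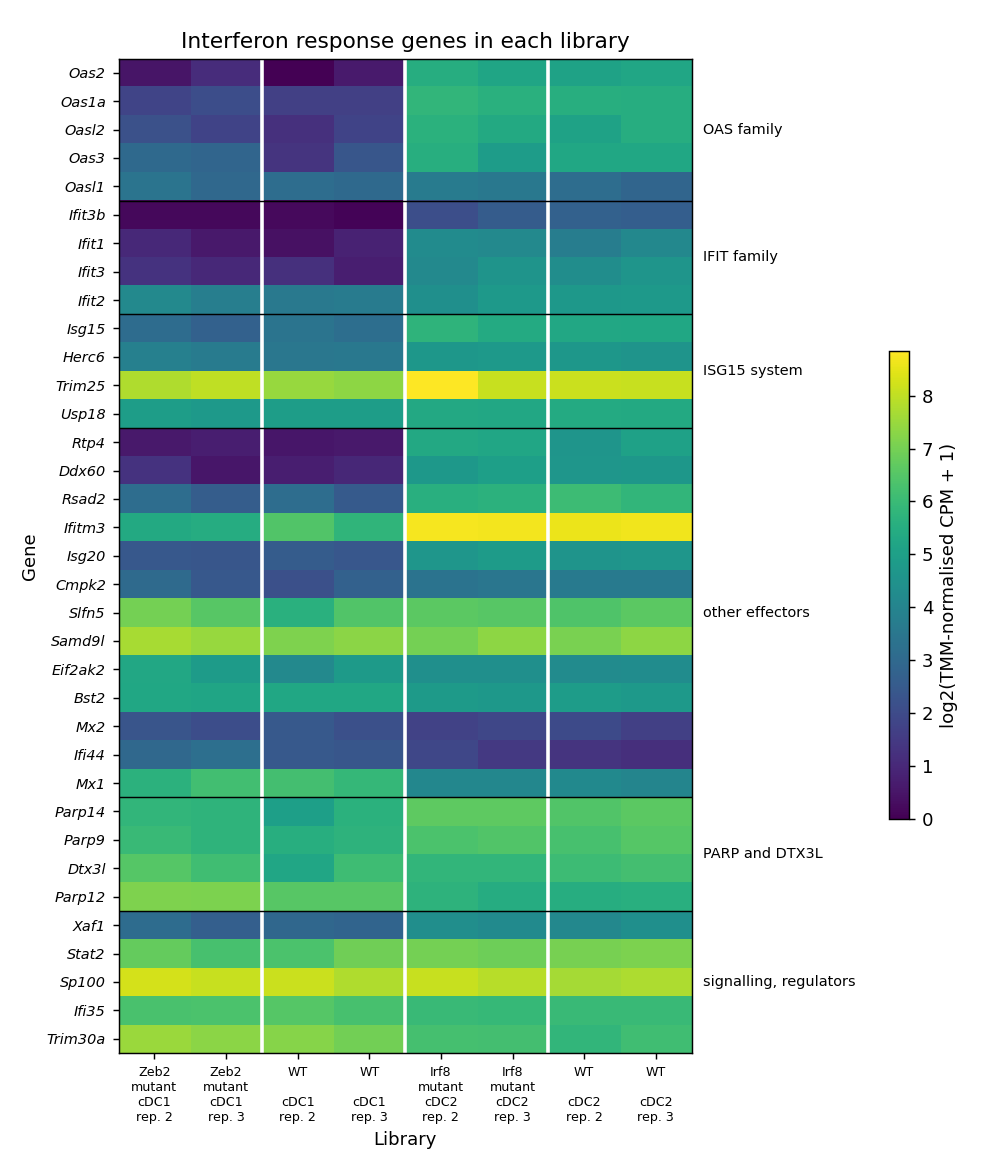
Level of each of the 35 genes (rows, by role) in each of the 8 libraries (columns), as log2 of TMM-normalised CPM plus 1, shown by colour. Oas2, Rtp4, Ifit3b, Ifit1 and Ddx60 are dark, that is low, in all 4 cDC1 libraries (at most 1.43 CPM) and brighter in all 4 cDC2 libraries, while Mx1 is brighter in cDC1.

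The oligoadenylate synthetases sense double-stranded RNA and make short oligoadenylates that switch on RNase L. Of the 5 measured, 4 were lower in wild-type cDC1, with a median log2 fold change of -4.36 over the 5. Oas1a (chromosome 5, 120896256 to 120907521, GRCm38) had 2.18 and 2.17 CPM in wild-type cDC1, against 45.2 and 45.0 CPM in wild-type cDC2. Oas2 had 0 and 0.565 CPM in wild-type cDC1, against 32.9 and 36.4 CPM in wild-type cDC2. For Oas2 these are 0 and 33 counts in wild-type cDC1, and a count of 0 allows up to 0.0518 CPM in that library. Oas3 had 1.54 and 4.17 CPM in wild-type cDC1, against 37.5 and 37.7 CPM in wild-type cDC2. Oasl2, a synthetase-like gene that binds double-stranded RNA, had 1.35 and 2.41 CPM in wild-type cDC1, against 32.8 and 44.7 CPM in wild-type cDC2.

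In all 4 of these genes both wild-type cDC1 libraries lay below both wild-type cDC2 libraries. Here and below, such separation of 2 libraries from 2 is a description only, and its share over all genes was not counted. The difference was 20.7-fold for Oas1a (log2 fold change -4.37, SE 0.19, adjusted p = 1.19e-07, edgeR), and 20.6-fold for Oasl2 (-4.36, SE 0.32, adjusted p = 3.89e-06). For Oas3 it was 13.2-fold (-3.72, SE 0.40, adjusted p = 6.33e-05). Oas2 had the largest log2 fold change among the members with all libraries in the fit, and the widest error (-6.92, SE 0.92, adjusted p = 0.00169). Without wild-type cDC1 replicate 2 it was -5.94, and without replicate 3 it was -13.9, a fitted value that sets no bound because the remaining library held 0 counts. For Oas3 the value without replicate 3 was -4.61. Oasl1, known in mouse to restrain translation of Irf7, was the exception: its 7.88 and 7.15 CPM in wild-type cDC1 overlapped the 7.97 and 6.32 CPM of wild-type cDC2 (log2 fold change 0.07, SE 0.24, adjusted p = 0.862). Oasl1 starts 11.0 kb beyond the end of Oasl2 on the same strand of chromosome 5, and these neighbours therefore differed in their cell-type pattern.

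The IFIT proteins bind viral RNA whose cap lacks methylation and block its translation. All 4 members were lower in wild-type cDC1, with a median log2 fold change of -4.55. Ifit1 (chromosome 19, 34640871 to 34650009) had 0.311 and 0.787 CPM in wild-type cDC1, against 12.5 and 16.5 CPM in wild-type cDC2, a difference of 26.4-fold (log2 fold change -4.72, SE 0.44, adjusted p = 2.3e-05) that became -5.53 without wild-type cDC1 replicate 3. Ifit3, which stabilises IFIT1 on RNA in human cells, had 1.35 and 0.684 CPM in wild-type cDC1, against 19.3 and 23.2 CPM in wild-type cDC2 (20.9-fold, -4.39, SE 0.35, adjusted p = 7.51e-06). Its near copy Ifit3b had 0.173 and 0.0684 CPM in wild-type cDC1, against 5.78 and 5.24 CPM in wild-type cDC2 (45.7-fold, -5.49, SE 0.48, adjusted p = 1.34e-05).

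The wild-type cDC1 value of Ifit3b rests on 10 and 4 counts, and without replicate 2 its log2 fold change was -6.29. Ifit3 and Ifit3b share 31.65% and 27.41% of their 100-base windows with each other, so how reads were split between them is uncertain. Ifit2, which is known to promote apoptosis, differed less than the other members of its family: 11.0 and 11.8 CPM in wild-type cDC1, against 25.0 and 25.7 CPM in wild-type cDC2 (log2 fold change -1.15, SE 0.20, adjusted p = 0.00155). The 4 genes lie near each other on chromosome 19, in the order Ifit2, Ifit3, Ifit3b, Ifit1, with gaps of 7.1, 19.2 and 27.5 kb. The gaps were measured between members only, and other genes within them were not looked for.

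ISG15 is a ubiquitin-like protein that is joined to other proteins and also secreted. All 4 members of this system were lower in wild-type cDC1, with a median log2 fold change of -0.95. Isg15 (chromosome 4, 156199455 to 156200796), the next in size after the 12 members given in full, had 9.54 and 8.07 CPM in wild-type cDC1, against 38.5 and 37.6 CPM in wild-type cDC2 (4.32-fold, -2.11, SE 0.20, adjusted p = 2.82e-05). Herc6, the main ISG15 ligase in mouse, was 2.30-fold lower (-1.20, SE 0.17, adjusted p = 0.000343). Usp18, which removes ISG15 and also blocks signalling at IFNAR2, had 29.3 and 29.2 CPM in wild-type cDC1, against 41.5 and 40.5 CPM in wild-type cDC2, a smaller difference of 1.40-fold (-0.49, SE 0.13, adjusted p = 0.0184). Trim25, a ubiquitin ligase that activates the RNA sensor RIG-I, was 1.62-fold lower (-0.69, SE 0.20, adjusted p = 0.0269). Both calls were lost without wild-type cDC2 replicate 2 (adjusted p = 0.163 for Usp18 and 0.132 for Trim25) or replicate 3 (0.12 and 0.108). The call for Trim25 was also lost without wild-type cDC1 replicate 2 (0.0976) or replicate 3 (0.148).

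The other antiviral genes split both ways, with 6 of 13 lower, 3 higher and 4 not called. The lower ones act at different steps of infection. Ifitm3, which blocks fusion of viruses in endosomes, had 85.1 and 54.0 CPM in wild-type cDC1, against 378 and 402 CPM in wild-type cDC2. That was 5.61-fold lower (log2 fold change -2.49, SE 0.19, adjusted p = 6.55e-06). Rsad2 (viperin), which makes a nucleotide that ends viral RNA chains, had 7.85 and 4.72 CPM in wild-type cDC1, against 65.2 and 55.2 CPM in wild-type cDC2 (9.58-fold, -3.26, SE 0.27, adjusted p = 1.01e-05). Isg20, an exonuclease that degrades viral RNA, had 4.89 and 4.26 CPM in wild-type cDC1, against 22.6 and 24.1 CPM in wild-type cDC2 (5.10-fold, -2.35, SE 0.19, adjusted p = 8.01e-06).

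Rtp4, a receptor chaperone that also binds viral RNA, and Ddx60, a helicase-like protein, were under 1 CPM in wild-type cDC1. Rtp4 (chromosome 16, 23520291 to 23614222) had 0.449 and 0.530 CPM in wild-type cDC1, against 23.7 and 32.1 CPM in wild-type cDC2 (-5.83, SE 0.26, adjusted p = 1.41e-07). Ddx60 had 0.691 and 0.975 CPM in wild-type cDC1, against 24.1 and 24.5 CPM in wild-type cDC2 (29.1-fold, -4.86, SE 0.43, adjusted p = 1.57e-05). Cmpk2, a mitochondrial nucleotide kinase that lies 12.8 kb from Rsad2 on the opposite strand of chromosome 12, was 2.47-fold lower (-1.31, SE 0.30, adjusted p = 0.00826). In each of the 6 genes the 2 cell types did not overlap in wild type.

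Mx1, Ifi44 and Bst2 went the other way. Mx1 (chromosome 16, 97447035 to 97462907), a GTPase that blocks influenza virus and is known to be defective in C57BL/6 mice, had 73.4 and 58.3 CPM in wild-type cDC1, against 17.5 and 15.2 CPM in wild-type cDC2 (4.04-fold higher, log2 fold change 2.01, SE 0.19, adjusted p = 2.73e-05). Ifi44, whose biochemical role is little known, had 4.53 and 4.17 CPM in wild-type cDC1, against 1.53 and 1.31 CPM in wild-type cDC2 (3.06-fold, 1.61, SE 0.31, adjusted p = 0.00259). Bst2 (tetherin), which holds budding virus at the cell surface, had 37.7 and 37.5 CPM in wild-type cDC1, against 28.4 and 26.7 CPM in wild-type cDC2 (1.36-fold, 0.45, SE 0.13, adjusted p = 0.0290). The groups did not overlap for these 3 genes, but the call for Bst2 was lost in 9 of 19 alternative settings. With a gene-length trend removed its log2 fold change was -0.00124, and without any of wild-type cDC1 replicate 2, either wild-type cDC2 library or either Zeb2 mutant cDC1 library its adjusted p was 0.0667 to 0.191.

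Mx2, the paralog 72.4 kb from Mx1, had 4.49 and 3.51 CPM in wild-type cDC1, against 2.95 and 2.17 CPM in wild-type cDC2, and did not pass the test (0.65, SE 0.31, adjusted p = 0.147). Eif2ak2, the kinase PKR that halts translation on sensing double-stranded RNA, overlapped between the groups (0.26, SE 0.23, adjusted p = 0.447). Samd9l, a growth-restraining antiviral protein, had 140 and 159 CPM in wild-type cDC1, against 134 and 160 CPM in wild-type cDC2 (0.02, SE 0.16, adjusted p = 0.943). Slfn5, a Schlafen family gene, did not pass either (-0.44, SE 0.25, adjusted p = 0.223). Without wild-type cDC1 replicate 3, Slfn5 was called lower (-0.92, adjusted p = 0.00304), and the value for Eif2ak2 was -0.12.

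The PARP members add ADP-ribose to proteins, and PARP9 works as a partner of the ubiquitin ligase DTX3L. Parp12 (chromosome 6, 39086410 to 39118349) was higher in cDC1, with 93.0 and 93.2 CPM in wild-type cDC1, against 44.8 and 46.6 CPM in wild-type cDC2 (2.04-fold, log2 fold change 1.03, SE 0.13, adjusted p = 0.000161). Parp14 was 2.30-fold lower (-1.20, SE 0.19, adjusted p = 0.000862) and Parp9 1.71-fold lower (-0.77, SE 0.15, adjusted p = 0.00281). Parp14, Dtx3l and Parp9 lie together on chromosome 16, and Dtx3l and Parp9 overlap on opposite strands by 458 exon bases. The library kit does not mark strand, so reads from that overlap cannot be assigned to 1 of the pair. Dtx3l had 36.6 and 67.2 CPM in wild-type cDC1, against 66.2 and 73.4 CPM in wild-type cDC2, and overlapped through 1 cDC1 library (-0.43, SE 0.24, adjusted p = 0.224). Without that library, wild-type cDC1 replicate 3, Dtx3l was called lower (-0.93, adjusted p = 0.00138).

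Of the regulators, Trim30a and Ifi35 were higher in wild-type cDC1, Xaf1 was lower, and Stat2 and Sp100 did not pass. Trim30a, which dampens Toll-like receptor signalling in mouse, had 149 and 124 CPM in wild-type cDC1, against 54.9 and 68.8 CPM in wild-type cDC2 (2.21-fold, log2 fold change 1.14, SE 0.15, adjusted p = 0.000303). Ifi35, a partner of NMI, had 91.1 and 75.3 CPM in wild-type cDC1, against 62.4 and 62.9 CPM in wild-type cDC2 (1.33-fold, 0.41, SE 0.13, adjusted p = 0.0393). That call was lost in 12 of 19 settings, among them leaving out wild-type cDC1 replicate 2, either wild-type cDC2 library or either Zeb2 mutant cDC1 library (adjusted p 0.0823 to 0.191), and 16.79% of the exon bases of Ifi35 overlap a gene on the other strand. Xaf1, which counters the apoptosis inhibitor XIAP, was 2.84-fold lower (-1.50, SE 0.23, adjusted p = 0.000584). Stat2, the ISGF3 subunit, had 80.8 and 122 CPM in wild-type cDC1, against 130 and 136 CPM in wild-type cDC2 (-0.39, SE 0.21, adjusted p = 0.195). Sp100, of the nuclear bodies, had 277 and 221 CPM in wild-type cDC1, against 202 and 214 CPM in wild-type cDC2 (0.26, SE 0.15, adjusted p = 0.218). Without wild-type cDC1 replicate 3 both were called, Stat2 lower (-0.71, adjusted p = 0.0146) and Sp100 higher (0.42, adjusted p = 0.0338). Sp100 was also called with the gene-length trend removed (0.531, adjusted p = 0.0224).

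**Figure D2:**
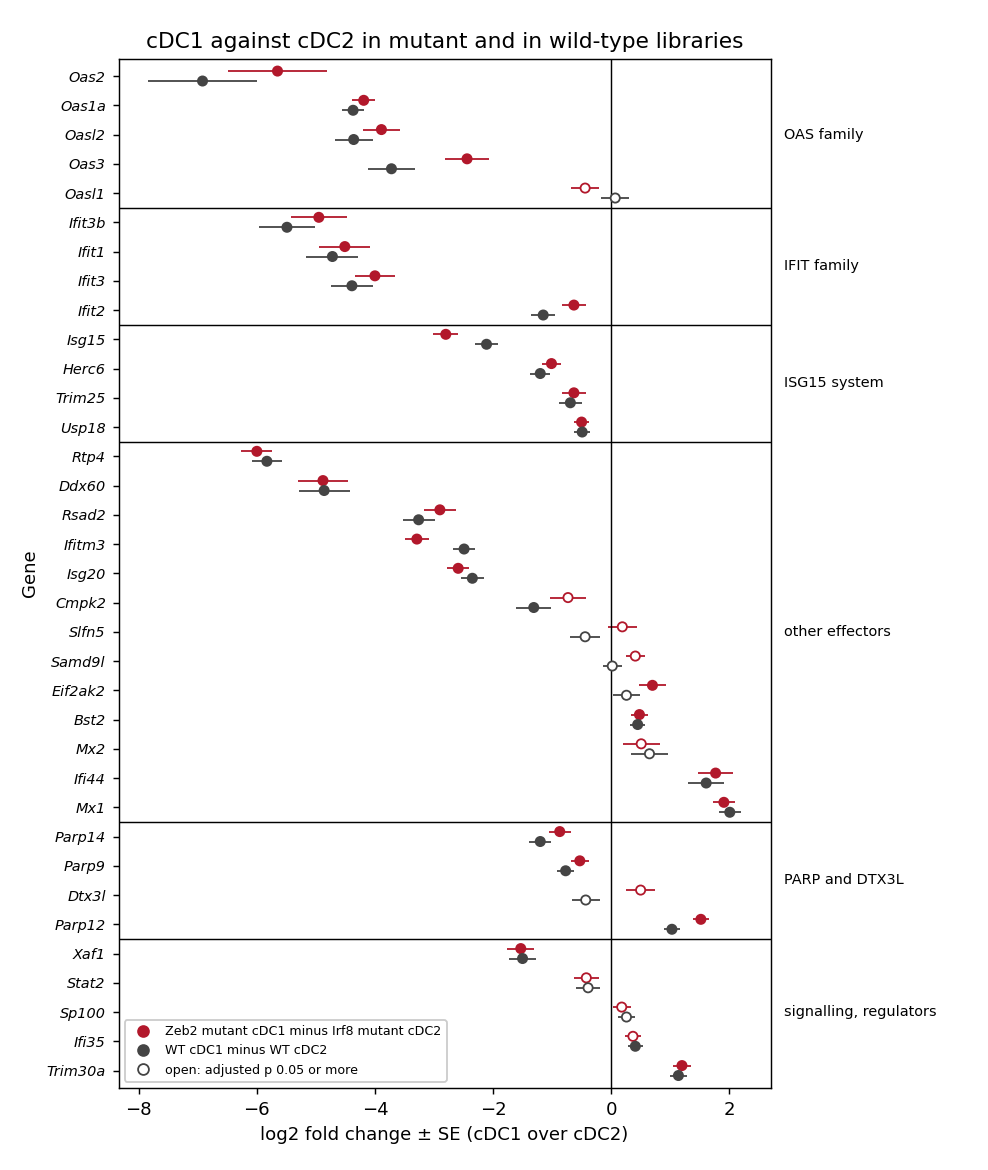
Log2 fold change with its standard error for each of the 35 genes, Zeb2 mutant cDC1 over Irf8 mutant cDC2 in red and wild-type cDC1 over wild-type cDC2 in dark, with open markers where the adjusted p was 0.05 or more. Values run between -6.00 (Rtp4) and 1.91 (Mx1) in the mutant comparison and between -6.92 (Oas2) and 2.01 (Mx1) in wild type.

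The 4 mutant libraries set the cell types against each other in other libraries than the wild-type ones, with the spread still estimated over all 8, and cell type and genotype cannot be told apart in them. Against an all-gene background of 15.0% called lower and 12.8% called higher, 20 of the 35 members were lower in Zeb2 mutant cDC1 than in Irf8 mutant cDC2, 6 were higher and 9 did not pass. All 20 of the lower members (100.0%) were also lower in the wild-type comparison, where they made up 95.2% of its 21, and Cmpk2 was the remaining one. Of the higher members 5 of 6 (83.3%) were shared, Eif2ak2 being called in the mutant comparison alone and Ifi35 in the wild-type comparison alone. The difference between the comparisons, given below, was not called for any of these 3 genes. The overlap of calls over all tested genes was not computed, so whether these shares are particular to the members is not known. The median log2 fold change over the members was -0.63 in mutant cells, against -0.02 over all tested genes.

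Among the synthetases, Oas1a had 2.48 and 3.21 CPM in Zeb2 mutant cDC1, against 55.6 and 48.2 CPM in Irf8 mutant cDC2 (log2 fold change -4.19, SE 0.19, adjusted p = 1.41e-07). Oas2 had 0.430 and 1.18 CPM in Zeb2 mutant cDC1, against 44.8 and 35.5 CPM in Irf8 mutant cDC2 (-5.65, SE 0.83, adjusted p = 0.00274). Without Zeb2 mutant cDC1 replicate 2 the value for Oas2 was -5.08 (adjusted p = 0.0618), and without replicate 3 it was -6.53. Oas3 had 7.10 and 6.45 CPM in Zeb2 mutant cDC1, against 45.1 and 28.6 CPM in Irf8 mutant cDC2 (-2.44, SE 0.37, adjusted p = 0.000715). Oasl2 had 3.59 and 2.43 CPM in Zeb2 mutant cDC1, against 49.2 and 40.1 CPM in Irf8 mutant cDC2 (-3.89, SE 0.31, adjusted p = 6.6e-06). These 4 genes were thus lower in mutant cDC1 as in wild type, and Oasl1 was again not called, at 9.68 and 6.91 CPM in Zeb2 mutant cDC1, against 11.9 and 10.7 CPM in Irf8 mutant cDC2 (adjusted p = 0.213).

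The IFIT genes were likewise low in mutant cDC1. Ifit1 had 1.01 and 0.516 CPM in Zeb2 mutant cDC1, against 18.1 and 17.0 CPM in Irf8 mutant cDC2 (log2 fold change -4.51, adjusted p = 2.69e-05). Ifit3 had 1.44 and 1.03 CPM in Zeb2 mutant cDC1, against 16.9 and 22.8 CPM in Irf8 mutant cDC2 (-4.0, adjusted p = 1.25e-05). Ifit3b had 0.138 and 0.129 CPM in Zeb2 mutant cDC1, against 3.39 and 5.02 CPM in Irf8 mutant cDC2 (-4.95, adjusted p = 2.41e-05). For all 3 genes both cDC1 libraries lay below both cDC2 libraries. Ifit2 was 1.55-fold lower (-0.63, SE 0.20, adjusted p = 0.0372), a call lost in 9 of 19 settings, among them those without Zeb2 mutant cDC1 replicate 3 (-0.43, adjusted p = 0.294), without Irf8 mutant cDC2 replicate 3 (-0.38, adjusted p = 0.295) or without either wild-type cDC2 library (adjusted p = 0.101).

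Of the effectors, Rtp4 had 0.516 and 0.664 CPM in Zeb2 mutant cDC1, against 39.2 and 36.3 CPM in Irf8 mutant cDC2, 64.0-fold lower (log2 fold change -6.00, SE 0.26, adjusted p = 1.2e-07). Ddx60 had 1.43 and 0.443 CPM in Zeb2 mutant cDC1, against 25.1 and 30.5 CPM in Irf8 mutant cDC2 (29.7-fold, -4.88, adjusted p = 1.49e-05), and its log2 fold change was -5.96 without Zeb2 mutant cDC1 replicate 2 and -4.27 without replicate 3. Ifitm3 had 40.6 and 43.7 CPM in Zeb2 mutant cDC1, against 417 and 410 CPM in Irf8 mutant cDC2 (9.80-fold, -3.29, SE 0.20, adjusted p = 1.16e-06). Rtp4 and Ddx60 had at most 1.43 CPM in every cDC1 library of either genotype, while Ifitm3 was lower than in cDC2 but still had 40.6 CPM or more. Rsad2 had 7.88 and 5.09 CPM in Zeb2 mutant cDC1, against 47.2 and 49.8 CPM in Irf8 mutant cDC2 (7.48-fold, -2.90, adjusted p = 2.11e-05). Isg20 had 4.40 and 4.19 CPM in Zeb2 mutant cDC1, against 23.9 and 27.7 CPM in Irf8 mutant cDC2 (6.01-fold, -2.59, adjusted p = 4.31e-06). Isg15 had 7.83 and 5.64 CPM in Zeb2 mutant cDC1, against 53.0 and 41.1 CPM in Irf8 mutant cDC2 (6.98-fold, -2.80, adjusted p = 4.66e-06). The cell types did not overlap for any of these 6.

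Of the members higher in wild-type cDC1, 5 were higher in mutant cDC1 too. Mx1 had 50.2 and 70.3 CPM in Zeb2 mutant cDC1, against 16 and 16.2 CPM in Irf8 mutant cDC2 (log2 fold change 1.91, SE 0.19, adjusted p = 4.05e-05). Ifi44 had 6.93 and 8.45 CPM in Zeb2 mutant cDC1, against 2.70 and 1.79 CPM in Irf8 mutant cDC2 (1.77, SE 0.30, adjusted p = 0.00140). Parp12 had 138 and 135 CPM in Zeb2 mutant cDC1, against 51.4 and 44.0 CPM in Irf8 mutant cDC2 (1.52, SE 0.13, adjusted p = 1.11e-05). The 2 groups were apart for each of these genes. Trim30a had 182 and 158 CPM in Zeb2 mutant cDC1, against 75.2 and 73.4 CPM in Irf8 mutant cDC2 (1.20, SE 0.16, adjusted p = 0.000224). Bst2 had 37.6 and 36.1 CPM in Zeb2 mutant cDC1, against 27.5 and 25.4 CPM in Irf8 mutant cDC2 (0.48, SE 0.14, adjusted p = 0.0232). Ifi35, with 78.2 and 79.8 CPM in Zeb2 mutant cDC1 and 63.0 and 59.6 CPM in Irf8 mutant cDC2, did not pass (0.37, SE 0.13, adjusted p = 0.0648), although its groups did not overlap. It was called higher there in 5 of the 19 settings (adjusted p 0.00765 to 0.043). Samd9l and Dtx3l, also not called, were called higher in 6 and 4 settings (adjusted p 0.0181 to 0.0443 and 0.00641 to 0.0277). Eif2ak2 was 1.63-fold higher in Zeb2 mutant cDC1 (0.70, SE 0.23, adjusted p = 0.0447). That call was lost in 8 of 19 settings, among them those without Zeb2 mutant cDC1 replicate 2 (0.46, adjusted p = 0.307), either Irf8 mutant cDC2 library (adjusted p 0.128 to 0.129) or either wild-type cDC2 library (0.0501 to 0.0514). The call for Bst2 was lost without either Zeb2 mutant cDC1 library (adjusted p 0.105 to 0.154) or Irf8 mutant cDC2 replicate 3 (0.0733), and with the gene-length trend removed (0.214, adjusted p = 0.398).

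The remaining lower members differed less. Herc6 was 2.02-fold lower in Zeb2 mutant cDC1 than in Irf8 mutant cDC2 (-1.01, SE 0.16, adjusted p = 0.00103) and Xaf1 2.88-fold lower (-1.53, SE 0.23, adjusted p = 0.000549). Trim25 had 220 and 254 CPM in Zeb2 mutant cDC1, against 458 and 275 CPM in Irf8 mutant cDC2 (-0.63, SE 0.20, adjusted p = 0.0437). The Irf8 mutant libraries stood apart for this gene, and without replicate 2 its value was -0.15 (adjusted p = 0.609); its call was lost in 12 of 19 settings. Parp14 (-0.87, SE 0.19, adjusted p = 0.00611) was lost without Irf8 mutant cDC2 replicate 2 (adjusted p = 0.0537). Usp18 (-0.50, SE 0.13, adjusted p = 0.0166) was lost when any 1 of the wild-type cDC2, Zeb2 mutant or Irf8 mutant libraries was left out, and Parp9 (-0.53, SE 0.15, adjusted p = 0.0225) when any of these except Zeb2 mutant cDC1 replicate 2 was.

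Within a cell type, no member was called changed by genotype. In the comparison of Zeb2 mutant with wild-type cDC1, 0 of 35 members passed edgeR's test, where 0.0679% of all tested genes did (14 genes). At an unadjusted p under 0.05 there were 10 members by edgeR, 11 by DESeq2 and 11 by limma-voom, and after adjustment DESeq2 called 3 and limma-voom 0. Here and below, the share of all tested genes under an unadjusted p of 0.05 was not counted. Such counts therefore cannot be read as particular to the members. Over all genes fitted, DESeq2 called 151 higher and 137 lower of 43631, and limma-voom 10 higher and 18 lower of 20631. The median log2 fold change was 0.29 over the members and -0.03 over all tested genes, with 26 of 35 members positive. Over the 19 settings the members' median lay between 0.12, without Zeb2 mutant cDC1 replicate 2, and 0.38, without replicate 3. In the comparison of Irf8 mutant with wild-type cDC2, 0 of 35 members and 0.0% of all genes passed. There 1 member was under an unadjusted p of 0.05 by edgeR, 1 by DESeq2 and 2 by limma-voom, with 0 adjusted calls by any of these. The median was 0.08 over the members, against 0.01 over all tested genes, and 20 of 35 were positive; without wild-type cDC2 replicate 2 the members' median was 0.01. The 2 comparisons share no library.

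The member nearest to the threshold was Parp12, whose levels in all 4 groups are given above. It was higher in both Zeb2 mutant cDC1 libraries than in both wild-type cDC1 libraries (log2 fold change 0.56, SE 0.13, edgeR adjusted p = 0.200). Ifitm3 was next, with both Zeb2 mutant cDC1 libraries below both of wild-type cDC1 (-0.72, SE 0.19, edgeR adjusted p = 0.239). Oas3 stood higher in both Zeb2 mutant cDC1 libraries (1.25, SE 0.38, edgeR adjusted p = 0.312). DESeq2 called these 3 genes, with adjusted p of 0.0261 for Parp12, 0.0224 for Ifitm3 and 0.0177 for Oas3. With no filter on low counts edgeR called Oas3, Slfn5 and Dtx3l higher and Ifitm3 lower in Zeb2 mutant cDC1. Over all 43631 genes fitted, that setting called 258 higher and 219 lower. In cDC2 the lowest adjusted p was 0.708, for Oasl1 (0.66, SE 0.24), at 11.9 and 10.7 CPM in Irf8 mutant cDC2, against 7.97 and 6.32 CPM in wild-type cDC2.

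**Figure D3:**
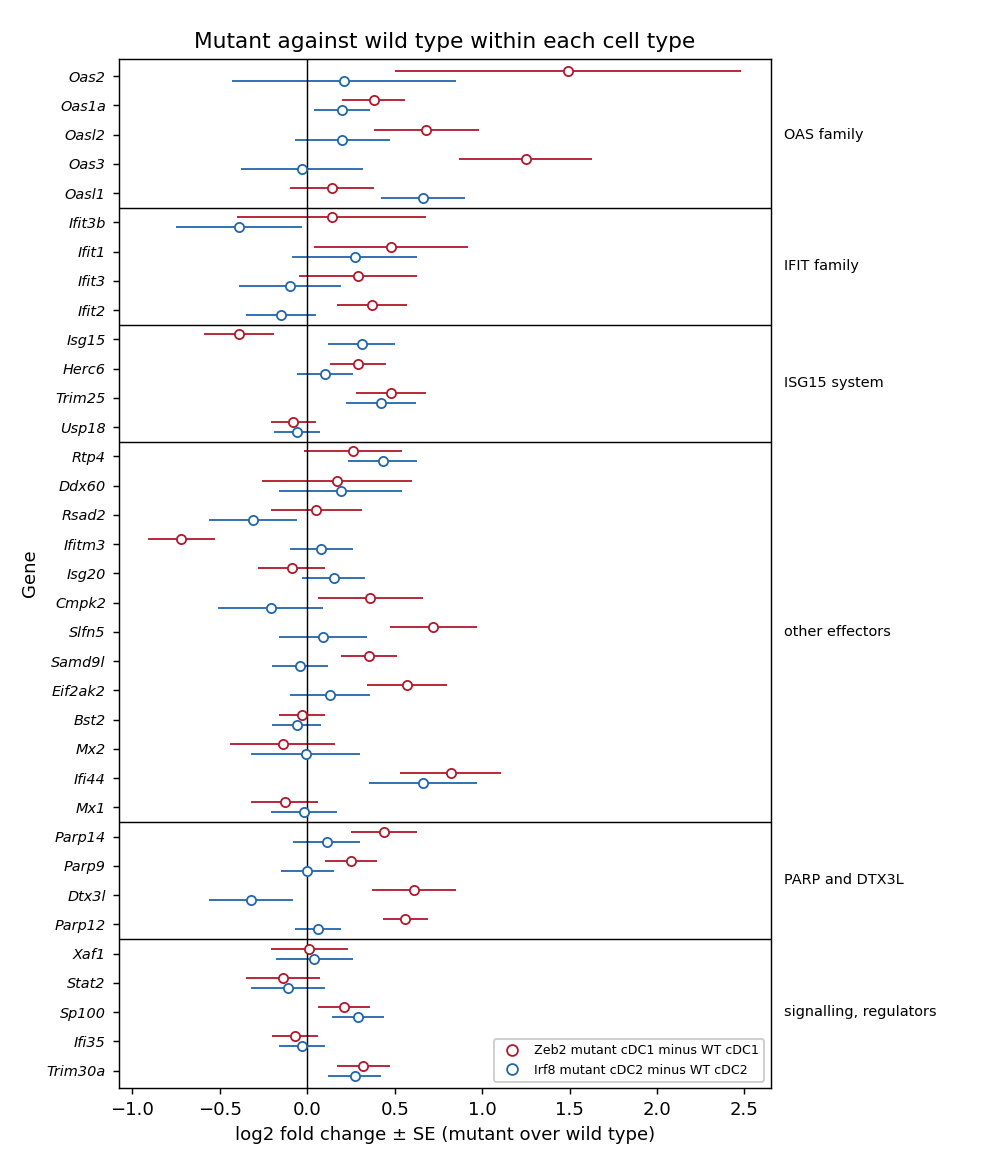
Log2 fold change with its standard error for each of the 35 genes, Zeb2 mutant over wild-type cDC1 in red and Irf8 mutant over wild-type cDC2 in blue; all markers are open because no adjusted p was under 0.05. Values lie between -0.72 (Ifitm3) and 1.49 (Oas2, SE 0.99) in cDC1 and between -0.39 (Ifit3b) and 0.66 in cDC2.

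How many members passed in cDC1 changed with 1 wild-type library, and also with the filter and the tool, as given above. Without wild-type cDC1 replicate 3, the log2 fold change of Zeb2 mutant over wild-type cDC1 was 2.17 for Oas3, 1.23 for Slfn5 and 1.15 for Dtx3l. It was 0.99 for Eif2ak2, 0.84 for Parp14, 0.59 for Parp12 and -0.98 for Ifitm3. Oas2 had 0 counts in the wild-type cDC1 library that remained. That lone library was assumed to vary like the other groups. These members were called in that fit, but many more of all tested genes were called there too than with all libraries. With any of the other 7 libraries left out, no member was called in either direction. The 2 wild-type cDC1 libraries differed in a way that moved with gene length. The rank correlation of exon length with the log2 difference of replicate 2 and replicate 3 was -0.392 across 8399 genes at 10 CPM or more, which are not independent. The other groups gave 0.243 in Zeb2 mutant cDC1, 0.143 in Irf8 mutant cDC2 and -0.000533 in wild-type cDC2. For the fold change of Zeb2 mutant over wild-type cDC1 that correlation was 0.481, against 0.0567 for Irf8 mutant over wild-type cDC2. Between the cell types it was -0.274 for wild-type cDC1 over wild-type cDC2, and -0.138 for Zeb2 mutant cDC1 over Irf8 mutant cDC2.

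The members were divided at 4000 exon bases, without a test of the difference. All tested genes were not divided in this way, so the shares cannot be read as particular to the members. The 19 longer members had a median log2 fold change of 0.36 in Zeb2 mutant over wild-type cDC1, and 18 of them were positive. The 16 shorter members had a median of 0.06, and 8 of them were positive. With the length trend removed across all genes, the members' median was 0.30 and 0 members were called. Neutrophil marker genes also differed in sum by genotype, coming to 98.28 and 137.9 CPM in Zeb2 mutant cDC1, against 14.67 and 1.044 CPM in wild-type cDC1. They summed to 126.0 and 57.45 CPM in Irf8 mutant cDC2, against 1.837 and 28.99 CPM in wild-type cDC2; 0 of the 8 passed in either comparison. The part of these markers in the members' values was not tested.

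The difference between the genotype effects, Zeb2 mutant over wild-type cDC1 minus Irf8 mutant over wild-type cDC2, was called for 0 of 35 members, where 0.0194% of all tested genes were called. At an unadjusted p under 0.05 there were 5 members by edgeR, 5 by DESeq2 and 5 by limma-voom, and 0 passed after adjustment by any of these. The lowest adjusted p was 0.490, for Ifitm3 (-0.80, SE 0.26), followed by Parp12 at 0.546 (0.50, SE 0.18) and Dtx3l at 0.566 (0.93, SE 0.34). Adjusted p was 0.80 for Cmpk2 and Eif2ak2 and 0.976 for Ifi35, the 3 genes called in 1 cell-type comparison only. Without wild-type cDC1 replicate 3 the difference was 2.23 for Oas3, 1.5 for Dtx3l, 1.18 for Slfn5, 0.76 for Parp14 and -1.03 for Ifitm3. These genes and Oas2 were called in that fit, where calls over all tested genes rose too.

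Levels of different genes were compared per kilobase of exon. In wild-type cDC1 Ifitm3 was the most abundant member (103 CPM per kb), followed by Ifi35 (48.2), Bst2 (41.6) and Trim30a (33.2). The lowest there were Ddx60 (0.0959), Oas2 (0.0634) and Ifit3b (0.0603 CPM per kb). In wild-type cDC2 Ifitm3 also came first (576 CPM per kb), but Isg15 (54.1) and Trim25 (47.7) followed, and Herc6 (2.56), Mx2 (0.707) and Ifi44 (0.232) were lowest. These orders are descriptions of group means and were not tested.

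**Figure D4:**
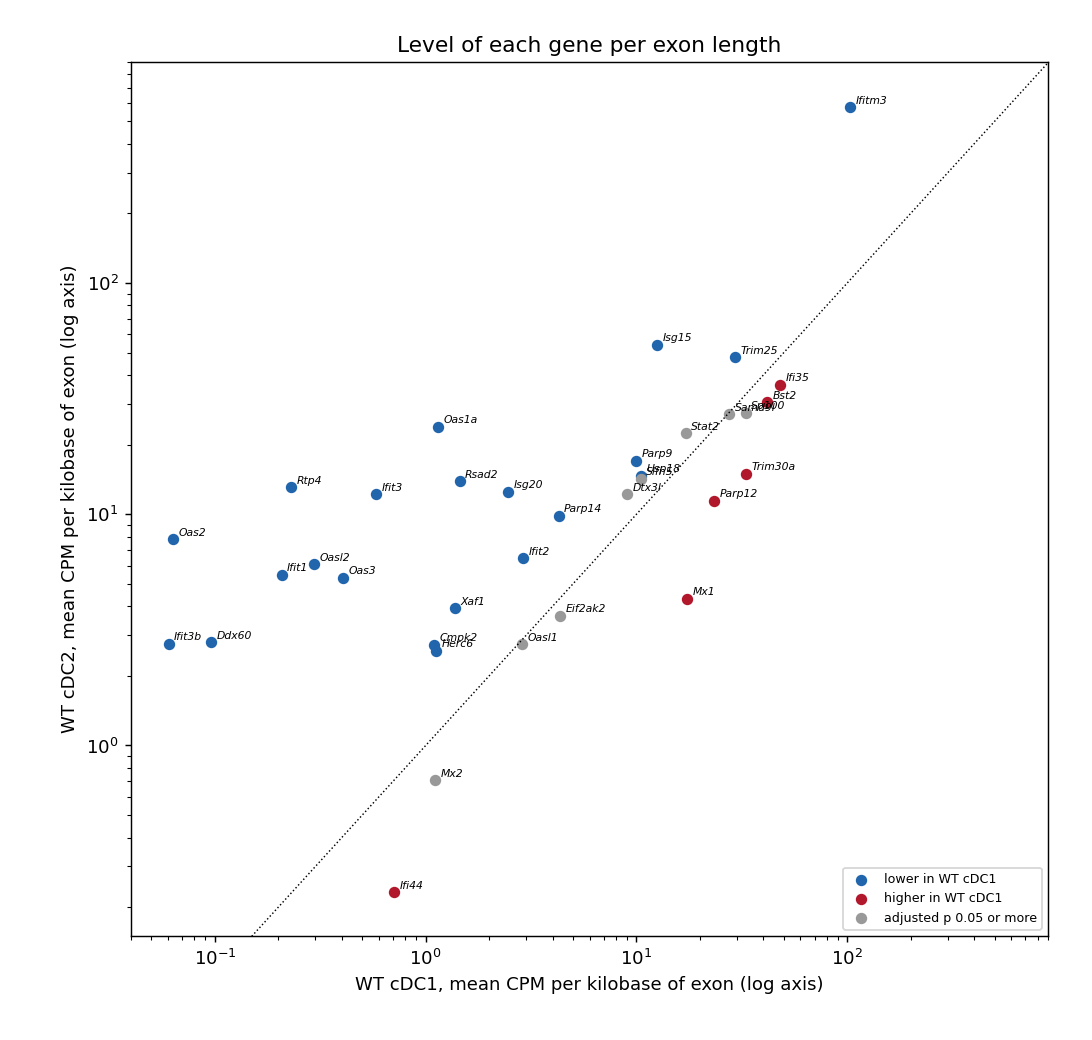
Mean level in wild-type cDC1 (x axis) and wild-type cDC2 (y axis) of each of the 35 genes, in TMM-normalised CPM per kilobase of exon, both axes logarithmic, coloured by whether the gene was called higher, lower or neither in cDC1. Points far above the dotted line of equal level are Oas2, Rtp4, Ifit3b, Ddx60 and Ifit1, and Mx1 and Ifi44 lie below it.

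The pathway that feeds these genes was read from lists that do not contain them. Interferon genes themselves were barely detected: of 21 listed ligand genes, 7 had no count in any library, 1 passed the filter, and the highest count in a library was 44. That gene, Ifng (interferon gamma), had 0.705 and 0.387 CPM in Zeb2 mutant cDC1, against 0.0193 and 0.122 CPM in Irf8 mutant cDC2, and was called higher (log2 fold change 2.92, SE 0.89, adjusted p = 0.0333, edgeR). The Irf8 mutant values rest on 1 and 6 counts, the first under the 0.0578 CPM that a count of 0 allows in that library. The call was lost in 6 of 18 settings, among them leaving out Zeb2 mutant cDC1 replicate 2 (2.43, adjusted p = 0.18) or Irf8 mutant cDC2 replicate 2 (2.21, adjusted p = 0.154). In wild type Ifng had 0.760 and 0.496 CPM in cDC1, against 0.164 and 0.178 CPM in cDC2, and did not pass (1.87, SE 0.82, adjusted p = 0.115). Natural killer cells are a known source of Ifng. Of 8 of their marker genes 3 were higher and 1 lower in Zeb2 mutant cDC1 than in Irf8 mutant cDC2. Their median log2 fold change was 0.93. Over all tested genes 12.8% were higher and 15.0% lower there, with a median of -0.02. The list summed to 33.68 and 27.4 CPM in Zeb2 mutant cDC1, against 75.94 and 102.5 CPM in Irf8 mutant cDC2. Klrd1 made up most of the Irf8 mutant sums (-3.19, adjusted p = 2.76e-05), whereas Gzma (2.11, adjusted p = 0.0069), Ncr1 (1.97, adjusted p = 0.0213) and Gzmb (1.21, adjusted p = 0.0269) were higher in Zeb2 mutant cDC1. No marker of the list was at 0 in any library, and the part of these markers in the value of Ifng was not tested.

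Of 9 receptor and kinase genes, 2 were higher and 5 lower in wild-type cDC1 than in wild-type cDC2, with a median of -0.47. Over all tested genes 14.2% were called higher and 15.9% lower, with a median of 0.03. Ifnlr1, the receptor chain for interferon lambda, was 8.16-fold higher (log2 fold change 3.03, SE 0.50, adjusted p = 0.00114). Ifnar2, a chain of the type I receptor, averaged 48.1 ± 2.60 CPM in wild-type cDC1, against 78 ± 0.990 CPM in wild-type cDC2 (SD, n = 2 each; -0.70, SE 0.12, edgeR adjusted p = 0.00177). The kinases Jak2 (-1.13, SE 0.14, adjusted p = 0.000139) and Jak1 (-0.73, SE 0.11, adjusted p = 0.000646) were lower too. Tyk2, which serves the type I receptor together with Jak1, was the other higher gene, at 293 and 428 CPM in wild-type cDC1, against 259 and 228 CPM in wild-type cDC2 (0.57, SE 0.18, adjusted p = 0.0334). That call was lost in 5 of 19 settings, among them leaving out wild-type cDC1 replicate 3 (0.27, adjusted p = 0.166) or either wild-type cDC2 library (adjusted p 0.0812 to 0.204). Tyk2 was also higher in Zeb2 mutant cDC1 than in Irf8 mutant cDC2 (0.72, SE 0.18, adjusted p = 0.0115), a call lost without replicate 3 of either group (adjusted p 0.0617 to 0.0739); it was named after its values were seen. Without wild-type cDC2 replicate 2, or without replicate 3, fewer genes of this list were called, and fewer of all tested genes too.

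Of 10 transcription factors, 3 were higher and 3 lower, with a median of -0.06. The background for the lists in this paragraph was 14.2% of all tested genes higher and 15.9% lower, with a median of 0.03. Irf8, which specifies cDC1, was 30.0-fold higher (log2 fold change 4.91, SE 0.17, adjusted p = 3.36e-08) and Irf4, which specifies cDC2, 40.9-fold lower (-5.35, SE 0.17, adjusted p = 1.57e-08) in wild-type cDC1; both also serve as markers of these cells. Stat3 (-0.96, adjusted p = 0.000264) and Irf2, a repressor of interferon response genes (-0.72, adjusted p = 0.00260), were lower. Irf9, an ISGF3 subunit, did not pass (-0.14, SE 0.13, adjusted p = 0.484); it was singled out after its values were seen. Of 10 negative regulators 6 were lower and 0 higher, with a median of -0.77; the phosphatases Ptpn6 (-1.94, SE 0.12, adjusted p = 1.34e-06) and Ptpn1 (-1.59, SE 0.13, adjusted p = 8.94e-06), the corepressor Irf2bp2 (-1.95, SE 0.33, adjusted p = 0.00159) and Socs3 (-1.37, SE 0.19, adjusted p = 0.000392) led them.

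Of 14 sensors and adaptors upstream of interferon, 1 was higher and 7 lower, with a median of -0.58. All tested genes gave 14.2% higher and 15.9% lower, with a median of 0.03. Tlr7, the endosomal sensor of single-stranded RNA, had 0.138 and 0.0171 CPM in wild-type cDC1, against 110 and 126 CPM in wild-type cDC2 (-10.53, SE 0.35, adjusted p = 2.41e-08). Tlr3, the endosomal sensor of double-stranded RNA and one of the cDC1 markers, had 260 and 322 CPM in wild-type cDC1, against 2.20 and 3.16 CPM in wild-type cDC2 (6.76, SE 0.25, adjusted p = 5.06e-08). The cytosolic RNA sensors Ddx58 (RIG-I) and Ifih1 (MDA5) are themselves induced by interferon. Ddx58 had 3.68 and 4.93 CPM in wild-type cDC1, against 73.7 and 90.4 CPM in wild-type cDC2 (19.1-fold, -4.25, SE 0.32, adjusted p = 4.73e-06), and Ifih1 was 2.92-fold lower (-1.55, SE 0.14, adjusted p = 1.79e-05).

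A further 64 genes known to respond to interferon divided as 10 higher, 28 lower and 26 not called, with a median of -0.43. For this list and the paralogs below, the background was 14.2% of all tested genes higher and 15.9% lower, with a median of 0.03. Among those whose higher group reached 5 CPM, the called ones with the largest changes were Ms4a4c (21.9-fold lower, -4.45, adjusted p = 3.7e-07), Ifi27 (7.53-fold lower, -2.91, adjusted p = 6.02e-07), the GTPase gene Gbp7 (5.23-fold lower, -2.39, adjusted p = 0.000357) and Cd274, which encodes PD-L1 (5.01-fold lower, -2.32, adjusted p = 1.76e-05). Among the 10 higher genes, Tap1 (1.43), Psmb9 (1.38), Tor3a (1.37), Psmb8 (1.32), Ly6e (1.29) and Pml (1.03) were called in all 19 settings. Phf11b, Nt5c3, Cxcl10 and Iigp1 were not called in some of them. Below 5 CPM Ms4a6d (-3.62, adjusted p = 0.00179) and Fcgr1 (-2.94, adjusted p = 0.0446) were lower and the GTPase gene Iigp1 (2.48, adjusted p = 0.0187) was higher. The call for Fcgr1 was lost in 6 of 19 settings, among them leaving out wild-type cDC1 replicate 3 (adjusted p = 0.154), either wild-type cDC2 library (0.0985 to 0.193) or either Irf8 mutant library (0.05 to 0.0573), and that for Iigp1 without any 1 of the 4 wild-type libraries (0.0647 to 0.179). Without wild-type cDC2 replicate 3 fewer genes of the list were called higher, and fewer of all tested genes too. Of 17 tested paralogs of the members 1 was higher and 10 lower, with a median of -1.26, among them Ifitm1 (-4.34, adjusted p = 2.56e-05), Ifitm6 (-3.00, adjusted p = 1.48e-06), Ifit1bl1 (-2.17, adjusted p = 0.00238) and Herc3 (-1.26, adjusted p = 0.000412). Oas1g, with which Oas1a shares 40.87% of its 100-base windows, averaged 0.388 ± 0.234 CPM in wild-type cDC1, against 4.01 ± 1.43 CPM in wild-type cDC2 (SD, n = 2 each). Across the settings wide ranges of log2 fold change were seen for Tlr7 (-12.58 to -9.71), Ifnlr1 (2.58 to 3.74), Irf2bp2 (-2.61 to -1.50), Ifitm1 (-5.28 to -3.77) and Ifit1bl1 (-2.94 to -1.67). In none of these 7 lists was a gene called in either genotype comparison.

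**Figure D5:**
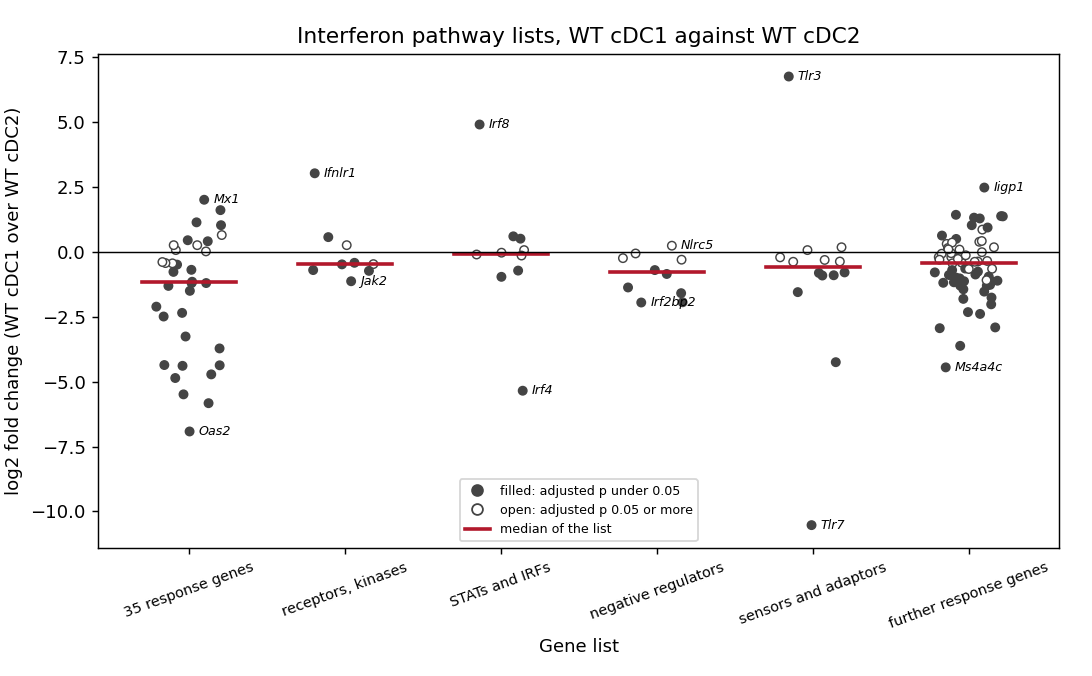
Log2 fold change of wild-type cDC1 over wild-type cDC2 for each tested gene of the 35 and of 5 pathway lists, by list, filled where the adjusted p was under 0.05, with a red line at each list's median. The median of the 35 genes (-1.15) is the lowest of the 6 lists drawn, and that of the STAT and IRF transcription factors (-0.06) the highest.

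Markers of cells that could accompany the sorted cDC differed in both directions between the cell types. The wild-type background was 14.2% of all tested genes called higher in cDC1 and 15.9% lower. Of 15 monocyte and macrophage markers 2 were higher and 10 lower in wild-type cDC1, while the list's sums, dominated by Lyz2, overlapped: 760.6 and 1093 CPM for Zeb2 mutant cDC1, 1326 and 808.4 CPM for wild-type cDC1, 1238 and 915.8 CPM for Irf8 mutant cDC2 and 1296 and 1250 CPM for wild-type cDC2. Adgre1 (F4/80) had 3.84 and 3.25 CPM in wild-type cDC1, against 227 and 204 CPM in wild-type cDC2, and C1qa had 0.708 and 0.479 CPM in wild-type cDC1, against 9.84 and 10.7 CPM in wild-type cDC2. Both lie on the lower side of this list, whose wild-type log2 fold changes ran from -5.93 to 1.31. Of 13 tested plasmacytoid dendritic cell markers 3 were higher and 6 lower, with list sums of 276.4 to 316.0 CPM over the 4 cDC1 libraries, against 409.5 to 480.0 CPM over the 4 cDC2 libraries. Siglech, the defining one, had 0.501 and 0.308 CPM in wild-type cDC1, against 11.1 and 11.1 CPM in wild-type cDC2. Wild-type log2 fold changes of that list ran from -5.11 to 2.51. Bst2 belongs to it as well as to the members, and Bst2 (0.45) and Irf7 (0.51) were among its 3 higher genes. The part of these markers in the members' lower levels in cDC1 was not tested.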

How the data were processed

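The submitters' processing notes name STAR, Salmon, bcl2fastq and featureCounts of Subread, and GRCm38 (mm10) as the build; whether counting used strand, or how it treated reads that fit several genes, is not given there. Per the file headers, each deposited file has a count column, which holds whole reads. The deposited CPM is the count over its column total, and the deposited FPKM is that CPM per kilobase of exon, which was checked on the values; the authors' TPM was not used. Depth was 49380686 to 58611821 counts per library, and the limit a count of 0 allows (3 counts) covers counting error only.

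Symbols came from GENCODE M21, which held 55227 of the 55487 gene IDs, 54870 with identical coordinates. Counts were fitted with edgeR 4.0.16 in R 4.3.3: filterByExpr, TMM scaling, a robust quasi-likelihood model with 1 coefficient per group over all 8 libraries and 4 residual degrees of freedom. A gene was called when its Benjamini-Hochberg adjusted p, across 20631 genes, was under 0.05. Every adjusted p in the text is from this test unless DESeq2 1.42.0 or limma 3.58.1 is named. A standard error is the size of the log2 fold change divided by the root of its F value, and a fold compares group means of TMM-scaled CPM. The model was tested on simulated counts.

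The members and lists were chosen with earlier results of these data known. Values in each library are given for the 12 called members with the largest log2 fold changes in wild type whose higher group reached 5 CPM, and for each member higher in cDC1; others given in full were added. In each pathway list up to 4 called genes, chosen likewise, are named, and a few others were added after their values were seen. The 19 alternatives covered scaling, filters, a replicate block, gene length, left-out libraries, DESeq2 and limma-voom.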

Additional observations from a re-analysis of the deposited data

How the results depend on the processing

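Of the 27 members called between the wild-type cell types, 23 were called in all 19 alternative settings, as were 18 of the 26 called between the mutants. How often calls over all tested genes held across the settings was not counted. Whether the members' calls were steadier than those of other genes is therefore not known. Leaving out 1 library at a time gave 4 to 7 members higher and 19 to 23 lower in wild-type cDC1, and 4 to 9 higher and 16 to 19 lower in Zeb2 mutant cDC1 against Irf8 mutant cDC2. For Zeb2 mutant against wild-type cDC1 and for the difference of effects, the left-out fits called members only without wild-type cDC1 replicate 3. Calls over all tested genes rose in that fit too. With no filter on low counts Zeb2 mutant against wild-type cDC1 gave 3 higher and 1 lower, and the difference of effects 2 above and 1 below 0. Over all 43631 genes fitted, this setting gave 258 higher and 219 lower, and 139 above and 167 below 0. DESeq2 gave 2 members higher and 1 lower for Zeb2 mutant cDC1, against 151 higher and 137 lower over all genes. The cause was not tested. Irf8 mutant against wild-type cDC2 gave 0 calls in each setting.

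Signs turned for members near 0. For Oasl1 in wild type the log2 fold change was -0.0277 with the gene-length trend removed, -0.0148 with the replicate block and the length trend removed, -0.00664 without wild-type cDC1 replicate 2 and -0.0643 without wild-type cDC2 replicate 3, with a highest value of 0.275 when 1 library was left out. For Samd9l it was -0.00909 with DESeq2 size factors, -0.0097 with DESeq2, -0.0729 without wild-type cDC1 replicate 3 and -0.0730 without wild-type cDC2 replicate 2, with a highest left-out value of 0.176. Eif2ak2 gave -0.120 without wild-type cDC1 replicate 3 and 0.556 without replicate 2, Bst2 -0.00124 with the length trend removed, and Slfn5 -0.0564 in the mutant comparison without Zeb2 mutant cDC1 replicate 2 and 0.416 without replicate 3.

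The replicate numbers are 2 and 3 in each group, and the labels do not say what they share. Correlations of same-numbered deviations were -0.228 to 0.138 over the 6 pairs of groups, and the numbers were not treated as pairs. With the replicate block 5 members were higher and 21 lower in wild-type cDC1, 5 higher and 18 lower in the mutant comparison, and 0 in the others; over all genes in wild type it gave 2600 higher and 3056 lower, against 2932 and 3287 without it. Scaling by library totals alone moved the median log2 fold change of all genes in wild type to 0.11, and leaving out wild-type cDC2 replicate 3 to 0.107. Depth limits Oas2 and Ifit3b in wild-type cDC1, which rest on 0 and 33 and on 10 and 4 counts.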
